A study of Haplochromis burtoni and Eretmodus cyanostictus and Lepidiolamprologus attenuatus with 30 samples.

Results

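The genes described here were at least 4 times higher in the intestine of Haplochromis burtoni than in the intestines of Lepidiolamprologus attenuatus and Eretmodus cyanostictus, without a steep change along the H. burtoni gut. They were chosen from normalised counts (CPM, the counts of a gene relative to all counts on genes in its library). A gene was taken if its mean over the 10 H. burtoni libraries was at least 10 CPM, its mean in each of the other 2 species was at least 1 CPM, and the H. burtoni mean was at least 4 times each of those means. In addition the highest of the 5 H. burtoni section means had to be under 4 times the lowest. Of 38425 genes, 10899 passed the 3 minimum levels and 85 met the whole rule. The limit of 300 genes in the rule was not reached. Because measured values chose these genes, the excess in H. burtoni and the flatness of its sections are given below as descriptions without a test.

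The study sequenced bulk RNA from the gut of 3 African cichlid fishes, with 2 fish per species. The gut of every fish was cut into 5 pieces of the same length, numbered from section 1 (anterior) to section 5 (posterior), which gave 30 libraries in 15 groups of 2. The deposited table numbers the H. burtoni fish 1 and 2, the L. attenuatus fish 6 and 7, and the E. cyanostictus fish 3 and 4. No treatment, age, sex or diet is given for any fish. H. burtoni is a generalist feeder, L. attenuatus a predator of fish and E. cyanostictus a grazer of algae on rocks. The fish intestine takes up most fat and small nutrients in its anterior part, and cells farther back take up whole protein. Gene IDs in the table are numbers without names, and none (0) matched the 28690 genes of the H. burtoni annotation NCSU_Asbu1. The function of the 85 genes, and the tissue label against intestinal markers, could therefore not be examined, and genes are given by ID or by rank. With bulk tissue, fewer cells of a type and less RNA per cell cannot be told apart. All species were counted over the same IDs, so a lower RNA level and poorer alignment of a species' reads to a gene cannot be told apart either.

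Libraries held 6311892 to 11353391 counts on genes, and reads outside any counted gene made up 6.15% to 16.5% of their counts. The highest of these shares belonged to H. burtoni fish 2, section 4, which also had the lowest depth. The lowest count of any of the 85 genes in a H. burtoni library was 24. In the other species, 4 of the 85 genes had a library with no count, 1 library each.

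The 85 genes were mostly of moderate abundance. Their H. burtoni means ran from 10.04 to 1372 CPM with a median of 26.8 CPM, and 57 genes reached 20 CPM, 31 reached 50 CPM and 11 reached 100 CPM. In L. attenuatus the median was 4.42 CPM, with a range of 1.01 to 312 CPM, and in E. cyanostictus it was 4.82 CPM, with a range of 1.40 to 39.8 CPM. Together the 85 genes held 5289 ± 388 CPM in H. burtoni, 895 ± 146 CPM in L. attenuatus and 656 ± 35.6 CPM in E. cyanostictus (mean ± SD of 2 fish, each the mean of its 5 sections). A single gene, ID 100706473, made up much of the sum. Without it the values were 3917 ± 700.0 CPM in H. burtoni, 582 ± 180.4 CPM in L. attenuatus and 633 ± 29.5 CPM in E. cyanostictus. The summed level ranged from 3963 to 6469.7 CPM over the 10 H. burtoni libraries, from 262 to 1721 CPM in L. attenuatus and from 423 to 879 CPM in E. cyanostictus, so every H. burtoni library lay above all 20 others.

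**Figure D1:**
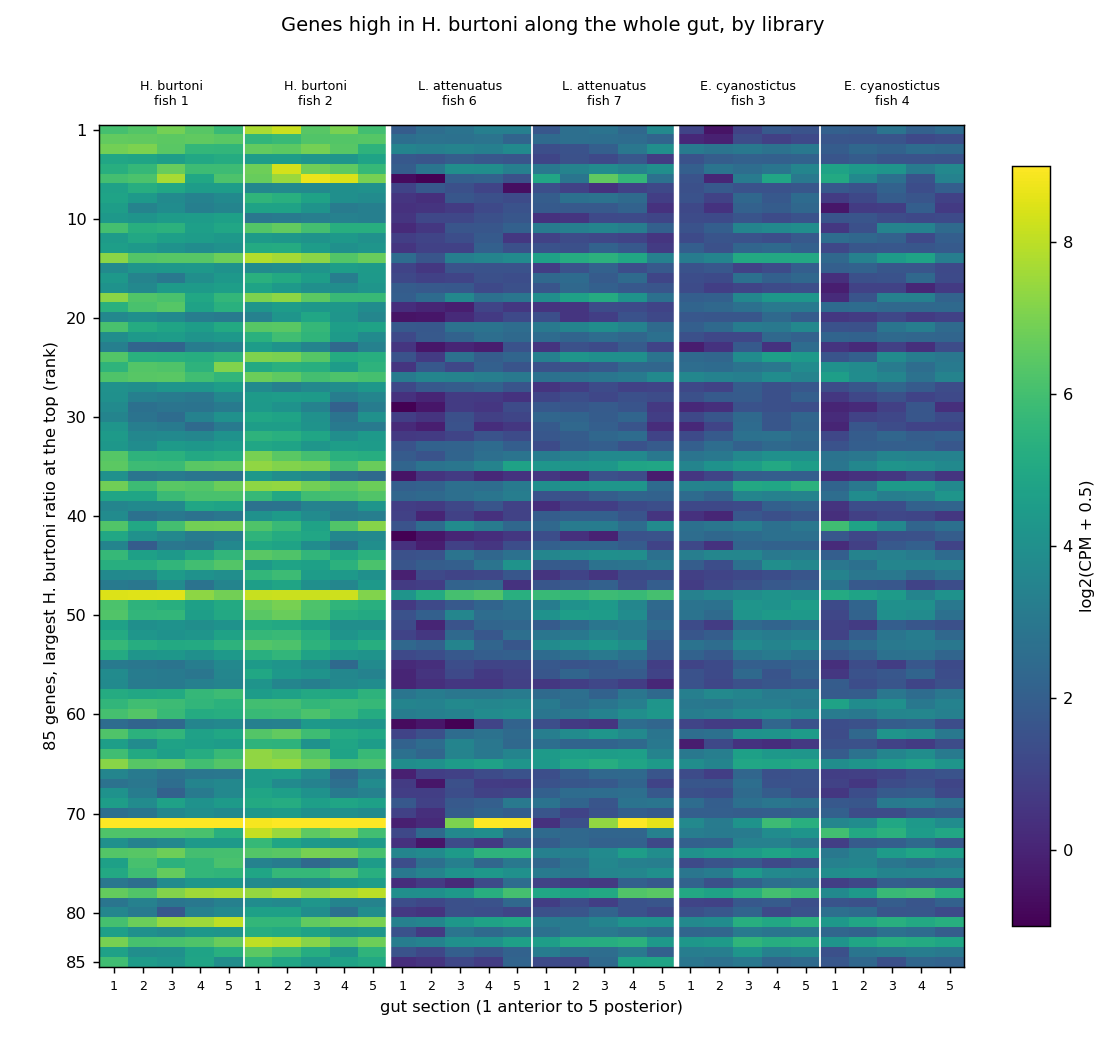
Each row is 1 of the 85 genes, ordered by its ratio of H. burtoni to the higher of the other 2 species, and each column is 1 library, ordered by species, fish and section. Colour gives log2(CPM + 0.5), cut off above 9. The 10 H. burtoni columns at the left are brighter than the 20 others in most rows, and in row 71, gene ID 100706473, sections 3 to 5 of both L. attenuatus fish are bright as well.

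The ratio of H. burtoni to the higher of the other 2 species had a median of 5.35 and ran from 4.05 to 17.7. It reached 5 in 53 genes, 6 in 29, 8 in 6 and 10 in 3. L. attenuatus was the higher of the other species for 27 genes and E. cyanostictus for 58. Just inside the rule the ratio was 4.05, and just outside it was 3.93. The largest ratio of H. burtoni sections inside the rule was 3.77, and the smallest outside it was 4.05. The lowest H. burtoni mean taken was 10.04 CPM, against 9.75 CPM for the next gene below the limit. The set is thus the upper end of a gradual range, and a ratio of at least 3 would have taken 171 genes.

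In 64 of the 85 genes the lowest of the 10 H. burtoni libraries lay above the highest of the 20 others. Among the 10899 genes past the minimum levels, 2.65% showed this, and since the rule chose on the same values nothing is read from the difference. The H. burtoni libraries were free of overlap with L. attenuatus in 73 of the 85 genes, against 8.61% of the 10899, and with E. cyanostictus in 70, against 5.64%. In 16 of the 85 genes the lowest H. burtoni library was at least 2 times the highest library of the other species, against 0.174% of the 10899. In the 21 genes with overlap, the lowest H. burtoni library came from fish 1 in 17. The mean of fish 1 was below that of fish 2 in 67 of all 85 genes, so nothing is read from these 17. As a mean of its sections, each H. burtoni fish was above all 4 fish of the other species in all 85 genes. This largely follows from the rule, which set the species means at least 4 times apart. The share over the 10899 genes was not computed, and nothing is read from this count.

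The excess was not equal along the gut. The median ratio of the H. burtoni section mean to the higher of the other 2 species was 8.18 in section 1, 6.77 in section 2, 4.09 in section 3, 3.25 in section 4 and 4.14 in section 5. A ratio of at least 4 was seen in 77, 81, 44, 29 and 44 of the 85 genes in sections 1 to 5, and in all 5 sections together in 16 genes. The ratio was at least 2 in every section in 77 genes. With library sizes scaled by TMM (trimmed mean of M-values, a scaling that sets most genes level between libraries), the medians were 6.96, 6.59, 4.79, 3.77 and 4.38 in sections 1 to 5, and 77, 82, 65, 38 and 47 genes reached 4. Among the 85 genes the gap was thus widest in the anterior sections. These ratios were not computed over the 10899 genes, and the rule used the H. burtoni section means. Nothing is therefore read from their course. Sections 1 and 2 of H. burtoni fish 2 were high for most of the 85 genes. Sections 1 and 2 of E. cyanostictus and of L. attenuatus fish 6 were low, while those of L. attenuatus fish 7 were not. Relative to a gene's species mean (log2 scale), medians of the 85 genes were -0.41, -0.65, -0.83 and 0.16 in section 1 of fish 3, 4, 6 and 7. In section 2 of these fish the medians of the 85 genes were -0.43, -0.21, -0.75 and 0.26. Over the 10899 genes, medians relative to a gene's species mean (log2 scale) were -0.23, -0.09, -0.34 and -0.20 in section 1 of fish 3, 4, 6 and 7. In section 2 they were -0.21, 0.03, -0.12 and -0.17. Their part in the gap was not tested.

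**Figure D2:**
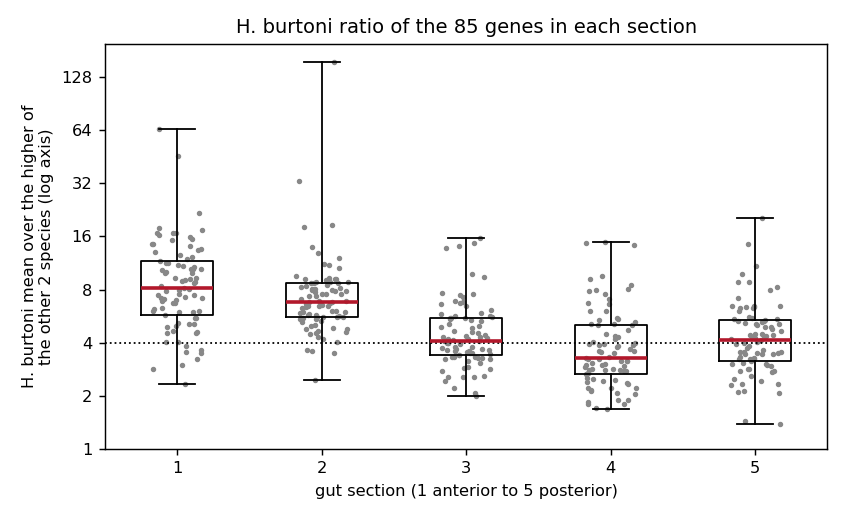
Each grey point is 1 of the 85 genes, the y axis (log scale) is the H. burtoni section mean divided by the higher section mean of the other 2 species, boxes span the quartiles, red lines mark medians and whiskers reach the extremes. The dotted line marks a ratio of 4. Medians are 8.18 and 6.77 in sections 1 and 2 and between 3.25 and 4.14 in sections 3 to 5.

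Gene ID 100534457 had the largest ratio of the set, 17.7. In H. burtoni it was at 65.4, 78.9, 119.7, 83.5 and 54.6 CPM in sections 1 to 5 of fish 1 and at 210.4, 292, 83.0, 126 and 62.4 CPM in fish 2. In L. attenuatus it was at 3.23, 5.45, 6.48, 9.56 and 9.37 CPM in fish 6 and at 2.79, 5.81, 6.47, 4.55 and 12.6 CPM in fish 7. In E. cyanostictus it was at 1.60, 0.221, 1.48, 2.99 and 2.47 CPM in fish 3 and at 3.68, 3.35, 6.69, 3.78 and 5.12 CPM in fish 4. All 10 H. burtoni libraries lay above the 20 others, the lowest of them 4.32 times the highest of the others. The ratio narrowed from 45.9 in section 1 to 5.32 in section 5, as H. burtoni was lower and L. attenuatus higher in section 5.

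The gene with the second largest ratio, 14.6, was the steadiest of the set along the H. burtoni gut, its section means differing by at most 1.20 times. It lay between 87.1 and 96.9 CPM in the sections of H. burtoni fish 1 and between 47.8 and 82.0 CPM in those of fish 2. It lay between 4.13 and 6.62 CPM in the L. attenuatus libraries and between 0.442 and 2.63 CPM in the E. cyanostictus libraries. Its lowest H. burtoni library was 7.23 times its highest library elsewhere, and its levels in the 3 species did not overlap.

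The gene with the second highest level, 268 CPM in H. burtoni, was at 289 to 374 CPM in sections 1 to 3 of both H. burtoni fish and in section 4 of fish 2, and at 117 to 156 CPM in section 4 of fish 1 and section 5 of both fish. It was at 17.4 to 78.2 CPM in L. attenuatus and at 10.1 to 34.5 CPM in E. cyanostictus. Its ratio was 9.21 in section 1 and 2.42 in section 5.

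The gene with the sixth largest ratio, 8.28, had the widest difference between the fish of L. attenuatus. It was at 30.7 to 204 CPM in H. burtoni fish 1 and at 101 to 420 CPM in fish 2. L. attenuatus fish 7 held 6.13 to 92.9 CPM, while fish 6 held 0 to 3.80 CPM, and the fish means differed by 19.1 times. Its H. burtoni libraries overlapped with those of both other species.

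Gene ID 100706473 had the highest level of the set and showed a different pattern in each species. In H. burtoni it was abundant in every section, at 1100.2, 2611, 2331, 983 and 937 CPM in sections 1 to 5 of fish 1 and at 466, 914, 1777, 1699 and 902 CPM in fish 2. In L. attenuatus it was at 0.430, 0.649, 129.5, 612 and 939 CPM in fish 6 and at 0.826, 2.20, 168, 888 and 383 CPM in fish 7. In E. cyanostictus it was at 12.6, 8.40, 17.0, 57.0 and 39.4 CPM in fish 3 and at 11.4, 14.2, 30.5, 21.0 and 14.1 CPM in fish 4. The anterior L. attenuatus values rest on 4 and 8 counts in section 1 and on 5 and 25 counts in section 2, against 3250 counts or more in sections 4 and 5.

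For this gene the excess over L. attenuatus was wide in sections 1 to 3 and small in sections 4 and 5. The ratio of H. burtoni to the higher of the other species was 65.0 in section 1 and 156 in section 2, where E. cyanostictus was the higher. There L. attenuatus held only 0.430 to 2.20 CPM, so the excess over it was wider than these ratios. In sections 3 to 5 L. attenuatus was the higher, and the ratio was 13.8 in section 3, 1.79 in section 4 and 1.39 in section 5. In section 5 the L. attenuatus libraries, 939 and 383 CPM, overlapped with the H. burtoni libraries, 937 and 902 CPM. This gene met the rule through its mean over sections and was not 4 times higher than in L. attenuatus along the whole gut.

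**Figure D3:**
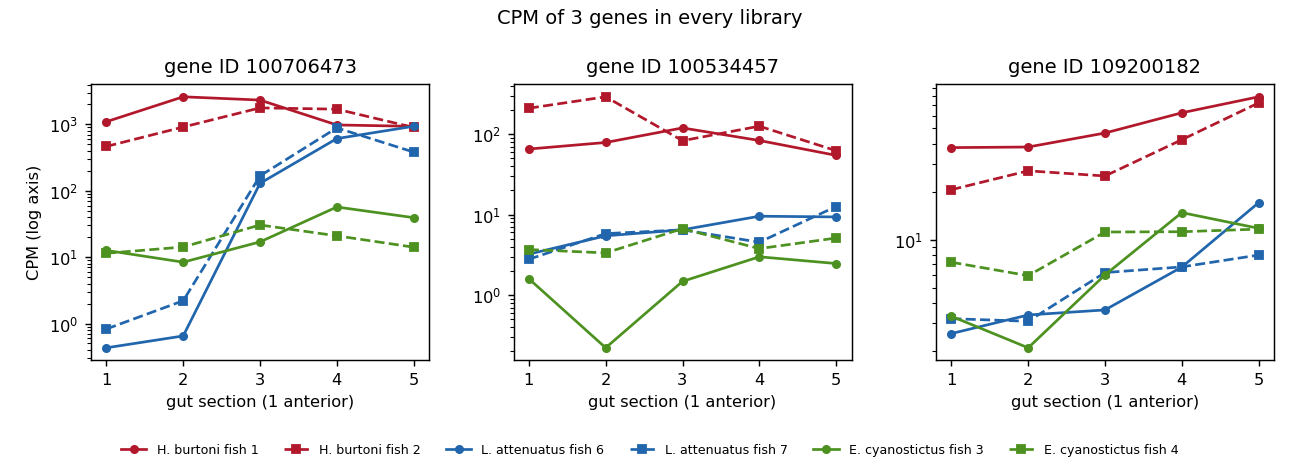
CPM (log axis) of 3 genes against gut section in every library, with 1 line per fish, red for H. burtoni, blue for L. attenuatus and green for E. cyanostictus. Gene ID 100706473 is between 466 and 2611 CPM in all H. burtoni sections, while L. attenuatus lies between 0.430 and 2.20 CPM in sections 1 and 2 and between 383 and 939 CPM in sections 4 and 5.

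Within H. burtoni the genes were limited by the rule to a 4-fold range of section means, and the median range was 2.36. Since the rule used these H. burtoni values, nothing is read from differences in them between the set and the 10899 genes. The highest section mean fell in section 1 for 50 of the 85 genes, against 22.7% of the 10899 genes past the minimum levels, and in section 5 for 13 genes, against 44.8%. The lowest mean fell in section 4 for 45 genes, against 19.2%, and on TMM-scaled CPM in section 4 for 33 genes (14.8% of the 10899) and in section 5 for 30 (34.1%). The section 4 library of fish 2 was the one with 16.5% of reads outside genes, whose part in this was not tested. The median of the 85 genes, relative to each gene's H. burtoni mean of log2(CPM + 0.5), was -0.37 in section 4 of fish 1 and -0.34 in that of fish 2.

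The high anterior levels were seen mainly in 1 fish. Section 1 or 2 of fish 2 was the highest H. burtoni library for 56 of the 85 genes, a count whose share over the 10899 genes was not computed. The medians relative to the H. burtoni mean were 0.72 and 0.69 on the log2 scale in these libraries, against 0.12 and -0.39 in sections 1 and 2 of fish 1. Over the 10899 genes the medians were 0.07 and 0.04 in fish 2 and -0.09 and -0.14 in fish 1. Sections 1 and 2 of fish 2 held 7566210 and 8970481 counts, with 7.78% and 8.47% of reads outside genes. Between sections 5 and 1, the median difference was -0.18 in fish 1 and -0.91 in fish 2, against 0.19 and 0.04 over the 10899 genes. The section 5 value was below that of section 1 in both fish for 46 genes and above it in both fish for 17, without a share over the 10899 genes.

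Differences between fish of a species were wide and ran through most of the set. The mean of fish 2 was above that of fish 1 in 67 of the 85 genes, with a median ratio of 1.43, where the 10899 genes had a median of 1.02 and 53.5% above 1. It was over 1.5 times higher in 38 genes and over 1.5 times lower in 7. In L. attenuatus fish 7 was above fish 6 in 62 genes with a median ratio of 1.67, against 43.7% and a median of 0.960 over the 10899 genes. In E. cyanostictus fish 4 was above fish 3 in 28 genes with a median ratio of 0.759, against 56.0% and a median of 1.04. Each species thus had 1 fish in which the set was higher, namely fish 2, fish 7 and fish 3. The rule chose on the mean of fish 1 and fish 2 and bounded the means of the other species. Nothing is therefore read from the difference between the set and the 10899 genes. On TMM-scaled CPM the counts were 65, 63 and 25, with the same directions. With 2 fish per species this difference between fish has no replicate and was not tested.

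The genes that were higher in fish 2 tended to be the ones that were higher in fish 7 and fish 3. This split was made after the values had been seen and is a description. Of the 67 genes higher in fish 2, 56 (83.6%) were higher in fish 7 than in fish 6, 51 (76.1%) were higher in fish 3 than in fish 4, and 48 (71.6%) showed both. Of the 18 genes higher in fish 1, 6 (33.3%), 6 (33.3%) and 2 (11.1%) did so. Over the 10899 genes, the shares were 50.01%, 41.4% and 27.1% of those higher in fish 2, and 36.4%, 47.02% and 19.4% of those higher in fish 1. On TMM-scaled CPM, 56, 50 and 48 of 65 genes higher in fish 2 and 7, 10 and 3 of 20 higher in fish 1 did so, against 60.1%, 53.1% and 37.4%, and 44.4%, 62.9% and 30.5%, over the 10899 genes.

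The 67 and the 18 genes also differed in their course along the H. burtoni gut. The split and the section means come from the same H. burtoni libraries, so this difference follows in part from the split and nothing is read from it. All 50 genes with their highest mean in section 1 were among the 67, and 10 of the 18 had their highest mean in section 5. In fish 2 the median of the 67 genes was 44.5 and 36.2 CPM in sections 1 and 2 and 26.5, 18.9 and 21.5 CPM in sections 3 to 5. In fish 1 it was 24.7 CPM in section 1 and 16.3 to 20.9 CPM in sections 2 to 5. For the 18 genes the median was 36.3 to 51.8 CPM over the sections of fish 1 and 22.7 to 37.4 CPM over those of fish 2. The ratio to the other species had medians of 5.31 for the 67 genes and 5.46 for the 18. The rule admitted only genes with a ratio of at least 4, so nothing is read from how close these medians are. No overlap with other species was seen in 49 of the 67 and 15 of the 18. The rule chose on the same values and no share over other genes is set beside these counts. Nothing is read from them either.

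**Figure D4:**
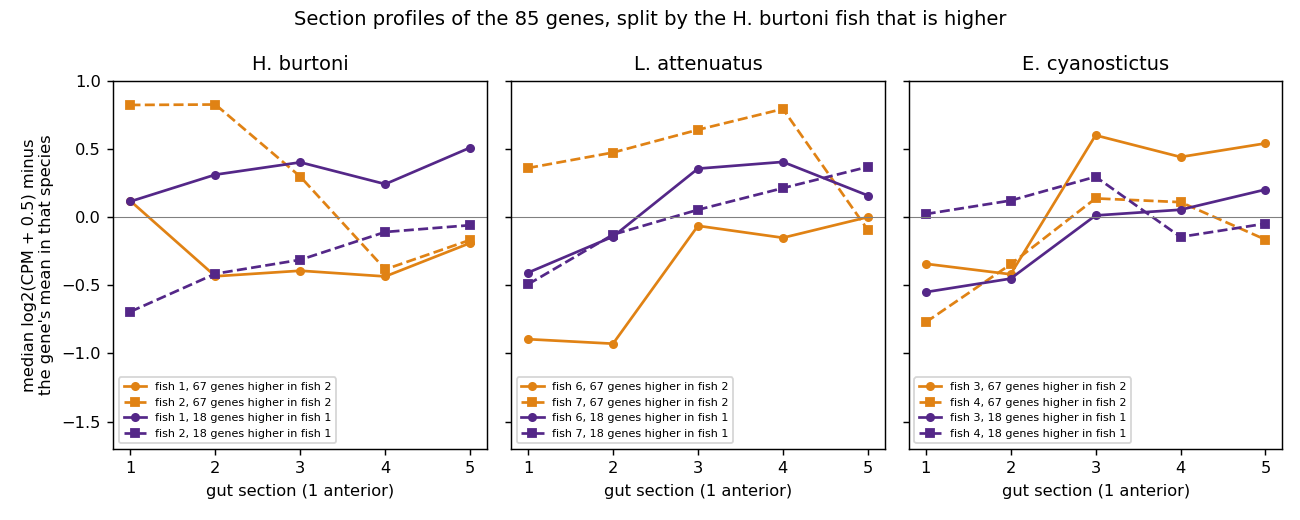
The y axis gives, for each library, the median over genes of log2(CPM + 0.5) minus the gene's mean in that species, and the x axis the gut section. Orange lines are the 67 genes higher in H. burtoni fish 2 and purple lines the 18 genes higher in fish 1. The orange median stands near 0.82 in sections 1 and 2 of fish 2, while in sections 1 and 2 of E. cyanostictus and of L. attenuatus fish 6 it lies below 0. The split was made on the means of fish 1 and fish 2, so the gap between these 2 fish follows from it.

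The sections of L. attenuatus and E. cyanostictus were not used by the rule, apart from their mean, and were tested. In L. attenuatus 1 of the 85 genes, ID 100706473, differed among the 5 sections (edgeR quasi-likelihood F-test, adjusted p = 0.000549, Benjamini-Hochberg over all 19697 genes tested, 2 fish per section), which is 1.18% of the set, while 9.35% of all genes tested passed. With fish as a block 6 of the 85 genes passed (7.06%), against 22.5% of all genes. In E. cyanostictus none (0) of the 85 passed in edgeR, where 0.00482% of 20733 genes did. With fish as a block the count was also 0, against 1.83% of all genes. Without the block 5 of the 85 genes in E. cyanostictus had an unadjusted p under 0.05 in edgeR, against 7.43% of all genes, and DESeq2 called 1, against 5.89%. With the block 25 of the 85 had an unadjusted p under 0.05 in edgeR, against 14% of all genes. All 85 genes passed the filter on low counts in both species.

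Between sections 5 and 1, 3 of the 85 genes were higher in section 5 of L. attenuatus (3.53%) and none (0) was lower in edgeR, whereas 7.83% of all genes tested were higher and 7.88% lower. At an unadjusted p under 0.05, 7 of the 85 genes were higher and 2 lower, against 15.9% and 14.6% of all genes, and DESeq2 called 4 and 0, against 9.34% and 9.54%. Without TMM scaling edgeR called 7 higher and 0 lower, against 17.1% and 4.68%. The 3 genes were ID 100706473, ID 100534457 and ID 109200182. ID 100706473 rose by 9.56 on the log2 scale (SE 0.82, edgeR adjusted p = 0.000410), with 939 and 383 CPM in section 5 against 0.430 and 0.826 CPM in section 1. ID 100534457 rose by 1.40 (SE 0.35, edgeR adjusted p = 0.0306), with 9.37 and 12.6 CPM in section 5 against 3.23 and 2.79 CPM in section 1. ID 109200182 rose by 1.66 (SE 0.44, edgeR adjusted p = 0.0393), with 17.1 and 8.02 CPM in section 5 against 2.58 and 3.20 CPM in section 1. Without L. attenuatus fish 6 the fitted changes of ID 100706473, ID 100534457 and ID 109200182 were 8.42, 1.76 and 0.908. Without fish 7 they were 10.5, 0.949 and 2.14. A fit of all 30 libraries did not call ID 100534457 (edgeR adjusted p = 0.288).

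With fish as a block, 7 of the 85 genes were higher in section 5 of L. attenuatus (8.24%, against 14.6% of all genes) and 2 were lower (2.35%, against 14.4%). One of the lower genes was the steady gene with the second largest ratio, at 4.16 and 4.13 CPM in section 5 against 5.59 and 5.06 CPM in section 1 (log2 fold change -0.82, SE 0.25, edgeR adjusted p = 0.0358). Without TMM scaling its change was -0.35 (SE 0.24) and did not pass (edgeR adjusted p = 0.268). The other, 53rd by ratio, was at 2.68 and 3.07 CPM in section 5 against 4.73 and 13.7 CPM in section 1 (log2 fold change -2.02, SE 0.44, edgeR adjusted p = 0.00878), and without TMM scaling its change was -1.56 (edgeR adjusted p = 0.0268). Both were picked out after their values had been seen.

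In E. cyanostictus none (0) of the 85 genes passed for section 5 over section 1 in either direction in edgeR, with or without the block, against 0.0241% of all genes higher and 0.00482% lower, and 1.46% and 1.28% with the block. Without the block 8 of the 85 genes were higher and 1 lower at an unadjusted p under 0.05, against 5.92% and 4.23% of all genes, and DESeq2 called 2 higher and 0 lower, against 2.86% and 1.57%. With the block 24 were higher and 1 lower at that unadjusted level, against 9.09% and 8.49%. The fitted change was positive in 60 of the 85 genes, with a median of 0.35 on the log2 scale, against 41.8% of all genes and a median of -0.12. In L. attenuatus it was positive in 40 of the 85, with a median of -0.18, against 51.3% and 0.03. These values use TMM scaling, and without it the median of all genes moves towards section 5. In L. attenuatus 54 of the 85 were then positive, with a median of 0.26, against 74.0% and 0.48, so the sign of the set's median turned while it stayed below that of all genes. In E. cyanostictus 67 were positive, with a median of 0.62, against 57.9% and 0.11.

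The 2 fish of L. attenuatus differed in the direction of the set. In fish 6, section 5 was above section 1 in 77 of the 85 genes, with a median difference of 0.96 in log2(CPM + 0.5), and in fish 7 in 42 genes, with a median of -0.06. In E. cyanostictus it was above in 79 genes of fish 3 (median 0.85) and in 61 of fish 4 (median 0.52), and in both fish in 56. Over the 10899 genes section 5 was above section 1 in 76.1%, 69.1%, 73.8% and 57.3% in fish 6, 7, 3 and 4. The medians over these genes were 0.53, 0.35, 0.34 and 0.12. On TMM-scaled CPM section 5 was above section 1 in 65, 32, 65 and 61 of the 85 genes in these fish. The shares over the 10899 genes were 54.8%, 50.4%, 49.4% and 56.9%. The medians were 0.62, -0.38, 0.53 and 0.50, against 0.08, 0.01, -0.01 and 0.12 over the 10899 genes. In 7 of the 85 genes (6 on TMM-scaled CPM) section 5 was above section 1 in all 6 fish, and in none (0) was it below in all. The share over the 10899 genes was not computed for counts that combine fish. Gene ID 109200182 was 1 of the 7. In H. burtoni it was at 78.9 and 72.3 CPM in section 5 of fish 1 and 2 against 37.9 and 20.6 CPM in section 1. In E. cyanostictus it was at 11.8 and 11.7 CPM in section 5 against 3.31 and 7.23 CPM in section 1, a fitted change of 0.97 on the log2 scale (SE 0.50) that did not pass (edgeR adjusted p = 0.587).

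**Figure D5:**
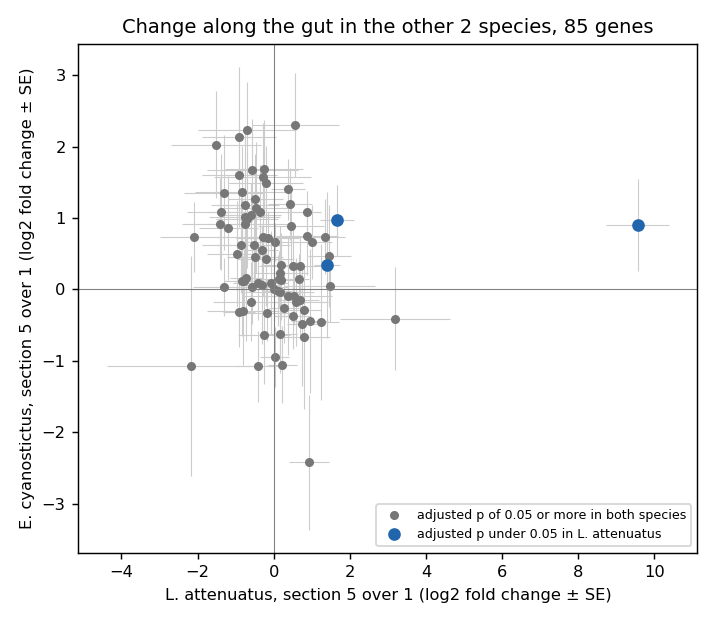
Each point is 1 of the 85 genes, with its log2 fold change of section 5 over section 1 in L. attenuatus on the x axis and in E. cyanostictus on the y axis, and grey bars are standard errors. The 3 blue points passed an adjusted p of 0.05 in L. attenuatus. The point at the far right is gene ID 100706473, at 9.56 in L. attenuatus and 0.91 in E. cyanostictus.

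The change along the gut was compared directly between L. attenuatus and E. cyanostictus. It differed for 1 of the 85 genes, ID 100706473, whose log2 fold change of section 5 over section 1 was larger in L. attenuatus by 8.60 (SE 1.16, edgeR adjusted p = 0.00193). None (0) of the others passed without the block, where 4 genes in all had a larger change in L. attenuatus and 6 a smaller one at an unadjusted p under 0.05, against 7.41% and 5.61% of all genes. DESeq2 called 2 larger and 0 smaller, against 1.60% and 1.09%. The test called 0.308% of all genes as larger in L. attenuatus and 0.29% as smaller. Without L. attenuatus fish 6 the difference for this gene was 7.50 and no longer passed (edgeR adjusted p = 0.109), when no gene (0) of the table was called as larger. With fish as a block 1 gene had a larger change in L. attenuatus, against 2.05% of all genes, and 1 a smaller one, the gene placed 53rd by ratio, against 2.08%. At an unadjusted p under 0.05 in edgeR the block gave 5 larger and 15 smaller, against 10.8% and 10.5% of all genes.

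The whole-gut levels of L. attenuatus and E. cyanostictus were both bounded by the rule and are described without a test. On CPM the mean of L. attenuatus was above that of E. cyanostictus in 27 of the 85 genes, with a median log2 ratio of -0.19, against 35.8% and a median of -0.22 over the 10899 genes. On TMM-scaled CPM it was above in 44 genes, with a median of 0.06, against 51.4% and 0.02, so the direction of the set turned with the scaling.

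The 4 genes with the largest ratio of L. attenuatus to E. cyanostictus were picked out after their values had been seen. ID 100706473 had a mean of 312 CPM in L. attenuatus against 22.6 CPM in E. cyanostictus. The gene 63rd by ratio to the other species had 5.88 CPM in L. attenuatus against 1.40 CPM in E. cyanostictus. Its libraries ran from 3.87 to 11.0 CPM in L. attenuatus and from 0.368 to 2.30 CPM in E. cyanostictus without overlap, and in H. burtoni it was at 13.6 to 44.7 CPM. The gene with the second largest ratio had 5.48 CPM in L. attenuatus against 1.78 CPM in E. cyanostictus, and the gene with the second highest level had 51.2 CPM in L. attenuatus against 18.0 CPM in E. cyanostictus. The libraries of the gene with the second largest ratio did not overlap either, while those of the gene with the second highest level did.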

How the data were processed

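The authors deposited 1 table of raw counts per gene ID, with 30 columns. Per the submitters' processing notes, Trimmomatic, STAR and HTSeq were used. Versions, genome build, annotation and strand handling are not given in the sources used here. How far reads of paralogous, overlapping and antisense genes were kept apart is therefore not known, beyond the reads over several genes that were left unassigned. The 5 rows of unassigned reads were left out of library sizes and tests. Reads outside counted genes made up 6.15% to 16.5% of a library and reads over several genes 2.58% to 3.45%. H. burtoni columns carry the fish numbers of the labels. The columns of the other species carry other numbers and were placed by species and section, with the fish number of the column name kept.

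CPM used the sum of gene rows. Tests used edgeR 4.0.16 in R 4.3.3 (filterByExpr, TMM scaling, robust quasi-likelihood), fitted on all genes that passed the filter, with Benjamini-Hochberg adjustment over all of them and a threshold of 0.05; alternatives used DESeq2 1.42.0. Standard errors are the fold change divided by the square root of F. Section tests used the 10 libraries of a species, and the difference of section changes used all 30. The planned test of whole-gut levels between L. attenuatus and E. cyanostictus was left out, because the rule bounds both levels. Scaling without TMM was added after seeing the data. The scripts were tested on simulated data. P-values without the block measure the spread between the 2 fish of a group, pooled over the groups of a fit and drawn towards that of other genes. With the block the mean difference between the fish is removed, and p-values measure the spread that is left. Sections of a fish come from the same animal, and differences between fish correlated across genes for all pairs of sections (0.173 to 0.799 in H. burtoni, 0.338 to 0.829 in L. attenuatus, 0.280 to 0.906 in E. cyanostictus), so fish was used as a block as an alternative.

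The genes, lists and tests were chosen with earlier results of these data known. As IDs have no names, the rule for named genes gave the gene with the highest H. burtoni mean, the gene with the largest ratio, and at most 2 genes that rise and 2 that fall from section 1 to 5 in both fish of both other species (at least 3 CPM in the higher section of both, blocked adjusted p under 0.05 in 1 of them, largest mean change). It found 6 rising and 0 falling candidates, and 3 IDs in all. Marker and pathway lists that need symbols were not used.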

Additional observations from a re-analysis of the deposited data

Results flagged for a closer look

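Gene ID 100706473 stands out by a direct test of the difference between species. Its log2 fold change of section 5 over section 1 was larger in L. attenuatus than in E. cyanostictus by 8.60 (SE 1.16, edgeR adjusted p = 0.00193), with values 9.56 in L. attenuatus and 0.91 in E. cyanostictus from the fit of each species. In L. attenuatus it was at 939 and 383 CPM in section 5 against 0.430 and 0.826 CPM in section 1, and in E. cyanostictus at 39.4 and 14.1 CPM in section 5 against 12.6 and 11.4 CPM in section 1. Without L. attenuatus fish 6 the difference was 7.50 (edgeR adjusted p = 0.109), and without fish 7 it was 9.54 (0.0463).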

How the results depend on the processing

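The number of genes meeting the rule was 171 with a ratio of at least 3, 29 with a ratio of at least 6 and 26 with H. burtoni sections within 2 times. It was 115 with no limit on sections and 100 on TMM-scaled CPM, and 57 to 102 when 1 fish was left out. Without H. burtoni fish 2, 57 genes met the rule and 47 of these were among the 85. Without H. burtoni fish 1, 98 genes met it and 60 of these were among the 85. Genes without overlap numbered 64 to 78 when 1 fish was left out, a step that can only keep or raise the count of 64. They numbered 68 with TMM and 69 with DESeq2 scaling. No share over all genes past the minimum levels is set beside these counts of genes without overlap. The rule also chose on the same values, so nothing is read from how little they moved. With the replicate block, the L. attenuatus section effect was called in 6 genes, section 5 over section 1 in 7 higher and 2 lower, and a smaller change in L. attenuatus than in E. cyanostictus in 1; the block changed no other count. Without TMM scaling (chosen after seeing the data) the L. attenuatus section effect was called in 3 genes, against 11.6% of all genes. Section 5 over section 1 in L. attenuatus was then called higher in 7, against 17.1%. With the replicate block and no TMM scaling these were 12 and 17 of the 85 genes, against 28.9% and 30.1% of all genes. In that setting 1 gene was lower in section 5 of L. attenuatus, against 8.24%, and 1 higher in that of E. cyanostictus, against 2.57%. The change was larger in L. attenuatus in 2 genes, against 2.63%, and smaller in 1, against 1.41%. DESeq2 called 4 genes for the section effect in L. attenuatus, against 17% of all genes, and 1 in E. cyanostictus, against 5.89%. It called 2 genes higher in section 5 of E. cyanostictus, against 2.86%, and 2 with a larger change in L. attenuatus, against 1.6%. For section 5 over section 1 in L. attenuatus, the fit of all 30 libraries called 2 higher genes, against 4.57% of all genes. An adjusted p under 0.01 called 1 of the 85, against 594 of all 19697 genes tested. Leaving out 1 fish, in fits where a lone sample is assumed to vary like the other groups, gave 1 to 1 genes higher in section 5 of L. attenuatus, 0 to 1 for the section effect and 0 to 1 lower in section 5 in E. cyanostictus, and 0 to 2 with a larger change in L. attenuatus. Shares over all genes are not set beside these counts with 1 fish left out, and nothing is read from them. For gene ID 109200182 the difference of section changes, 0.62 and not called, was -0.0898 without L. attenuatus fish 6 and 1.14 without fish 7. The cause of these shifts was not tested. Of 101 other settings of these counts, 74 stayed within 1.5 times. A count of 0 that stayed at 0 was taken as unchanged, and many of the 74 are of this kind. The total is therefore no measure of how steady the counts above 0 were. The least abundant of the 85 genes averaged 8.60 counts per library in L. attenuatus and 12.5 in E. cyanostictus, which limits tests among their sections.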

Other observations

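Applied to the other species in the same way, the rule took 80 genes for L. attenuatus and 116 for E. cyanostictus, beside the 85 of H. burtoni. A further 50 genes met every criterion for H. burtoni except the minimum of 1 CPM in each of the other species. Among these the highest mean in the lower of the other species was 0.919 CPM, against 1.01 CPM for the lowest of the 85 genes taken.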
